A study of Mus musculus with 15 samples.

Results

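The members described here are the mRNAs of the cytosolic ribosomal proteins in mouse ventricular cardiomyocytes. They were chosen by name from the deposited table: IDs starting with Rpl or Rps and a digit, the stalk proteins Rplp0 to Rplp2, and Rpsa. Rpl3, its muscle paralog Rpl3l, Rps19bp1 and the Rps6k kinases were left out, 10 IDs in all. This gave 89 of 9666 rows, 53 of the large and 36 of the small subunit. Of these, 76 are core genes (45 large, 31 small) and 13 are paralogs or near-copies of another member (8 large, 5 small). All 89 passed the filter on low values, an RPKM of at least 1 in at least 4 libraries, which 9389 rows passed.

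Cardiomyocytes were isolated from the ventricles of WT C57BL/6 mice at postnatal day 1 (P1, 4 libraries), at postnatal day 3 (P3, 4 libraries) and in adults of 8 to 12 weeks (7 libraries). The mice carried no named transgene or treatment. The labels tie no library to an animal, so the tests below rest on a spread between libraries that could be partly technical. The series asks which genes separate heart muscle cells that can still regenerate from adult ones, with N-cadherin and β-catenin as its subject.

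The cytosolic ribosome joins a small subunit, which reads the mRNA, to a large subunit, which forms the peptide bonds. Nearly every core protein is present in 1 copy per ribosome, and the mRNAs of these proteins are known for a tract of C and T at the 5′ end, through which mTOR and the RNA-binding protein LARP1 control their translation. In the heart, mouse cardiomyocytes stop dividing within days of birth and then grow by enlarging.

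Values are RPKM, the reads on a gene divided by its length and by the size of the library. Levels may be compared between genes only as far as the lengths used and the assignment of reads are right, and neither is given. The summed RPKM of the table was 274001 to 309909 in P1, 228162 to 321035 in P3 and 145050.0 to 280112 in adults. Taking the smallest step in a gene's values as 1 read put the RPKM denominator, in units of 1000000 reads, at 10.5 to 11.2 in P1, 9.4 to 13.5 in P3 and 6.3 to 17.1 in adults. Adult replicates 5 to 7 had 16.7 to 17.1 such units and adult replicates 1 to 4 had 6.3 to 11.0, so the adults form 2 sets. All 8 listed cardiomyocyte markers, among them Myh6, Tnnt2 and Ryr2, were in the table, and they summed to 3542 to 7721 RPKM in P1, 497 to 4549 RPKM in P3 and 12670.0 to 23800.0 RPKM in adults. P3 replicate 1 held 4549 RPKM, while P3 replicates 2 to 4 held 968, 524 and 497 RPKM, so these 3 libraries are low in the markers of the labelled cell. The 8 of 10 endothelial markers in the table summed to 198 to 469 RPKM in P1, 670.1 to 1607 RPKM in P3 and 2.37 to 199 RPKM in adults. The 4 of 9 fibroblast markers summed to 158 to 1331 RPKM in P1, 367 to 791 RPKM in P3 and 0.917 to 68.5 RPKM in adults, and the 3 of 6 mural markers to 109.9 to 503 RPKM in P1, 407 to 711 RPKM in P3 and 19.4 to 98.3 RPKM in adults. The fibroblast sum of 1331 RPKM was that of P1 replicate 1, while P1 replicates 2 to 4 held 158, 193 and 167 RPKM. P1 replicate 1 also had the lowest cardiomyocyte sum of P1, 3542 RPKM, and the highest share of ribosomal protein mRNA, 16.4%. Whether these are linked was not tested. No immune or erythroid marker was among the rows. No value of the table lies at or under 0.1, so genes that low in any library may have been left out. A marker missing from the rows therefore does not show that its cells were missing from a library. Adult replicate 4 was the highest adult library in table sum, in cardiomyocyte, endothelial, fibroblast and mural markers and in ribosomal protein mRNA. In such bulk libraries, fewer cells of a type and less RNA per cell cannot be told apart.

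The 5′ tract was looked for in the 40 bases around the annotated start, 20 on each side, taken from RefSeq promoters of build GRCm38.p6. Windows were found for 65 of the 89 members. An unbroken run of at least 8 C or T on the coding strand was present in 31 of the 65 (47.7%), in 20 of 40 large-subunit members (50.0%) and in 11 of 25 small-subunit members (44.0%). The same held for 1402 of 7401 tested genes (18.9%) and for 18.4% of all promoters in the table. On the other strand such a run was found in 7.69% of the members and in 18.4% of the tested genes. The following windows, 5′ to 3′ with the run in capitals, show the tract at its longest and in members whose mRNA changed most or least.
Rpl7a (chr2:26910787-26910826, plus strand): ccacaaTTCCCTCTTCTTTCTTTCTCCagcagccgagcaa
Rpl27a (chr7:109519175-109519214, plus strand): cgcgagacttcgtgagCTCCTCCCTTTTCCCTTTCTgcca
Rpl34 (chr3:130730318-130730357, minus strand): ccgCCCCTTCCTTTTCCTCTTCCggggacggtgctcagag
Rpl35 (chr2:39005112-39005151, minus strand): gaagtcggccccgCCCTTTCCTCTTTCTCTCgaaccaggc
Rpl15 (chr14:18270967-18271006, minus strand): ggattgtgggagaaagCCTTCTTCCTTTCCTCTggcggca
Rps10 (chr17:27635225-27635264, minus strand): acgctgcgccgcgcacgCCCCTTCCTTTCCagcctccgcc
Rps6 (chr4:86857348-86857387, minus strand): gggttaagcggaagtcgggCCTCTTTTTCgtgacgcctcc
Rps26 (chr10:128626487-128626526, minus strand): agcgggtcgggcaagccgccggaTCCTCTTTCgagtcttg
Rpl22l1 (chr3:28805488-28805527, plus strand): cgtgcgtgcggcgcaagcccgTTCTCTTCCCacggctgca

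Runs of 8 were not found in 34 members, and the windows of 5 of them are shown because their mRNAs stood out from the rest of the family in adults.
Rpl22 (chr4:152324416-152324455, plus strand): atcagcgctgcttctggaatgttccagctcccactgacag
Rpl24 (chr16:55966255-55966294, plus strand): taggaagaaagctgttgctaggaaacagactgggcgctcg
Rplp0 (chr5:115559447-115559486, plus strand): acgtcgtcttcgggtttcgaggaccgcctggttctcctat
Rps2 (chr17:24720043-24720082, plus strand): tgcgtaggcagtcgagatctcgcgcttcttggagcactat
Rps19 (chr7:24884893-24884932, plus strand): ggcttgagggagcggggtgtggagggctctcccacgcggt
A window without a run says only that these letters are not there, since the annotated start can differ from the start in use. The Rpl22 window lies upstream of the Rpl22 span given below, and the Rps19 window begins inside the Rps19 span. Members with a run also stood out from the family in both adult comparisons, among them Rps26, Rps24 and Rpl13a, with runs of 9, 9 and 14. The median log2 change in adults against P1 was -2.30 over the 31 members with a run (range -2.93 to -1.85) and -2.21 over the 34 without (range -2.85 to -1.51). Against P3 the medians were -2.11 with a run and -1.95 without. The ranges of the 2 sets overlapped over most of their length.

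Ribosomal protein mRNA was lower in adults than at either neonatal day, for both subunits. The 53 large-subunit members summed to 27920.0, 25099, 20325 and 21666 RPKM in P1 replicates 1 to 4 and to 27670.0, 21499, 18271 and 14988 RPKM in P3 replicates 1 to 4. In adult replicates 1 to 7 they summed to 4279, 4689.8, 4076, 11802, 4770.4, 4673 and 3381 RPKM. No adult library reached the lowest neonatal one, P3 replicate 4, and adult replicate 4 came nearest. The 36 small-subunit members summed to 21522, 19138, 15184 and 16441 RPKM in P1, to 21099, 16433, 14115 and 11496 RPKM in P3, and to 3554, 3935, 3481, 9666, 3747, 3667 and 2657 RPKM in adults. Again the groups of neonatal and adult libraries did not overlap, and P1 and P3 did. As a share of the table's RPKM, the members held 14.2% ± 1.58 in P1 and 13.3% ± 1.52 in P3 (SD, n = 4 each) and 5.12% ± 1.34 in adults (SD, n = 7).

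The subunits kept close to a fixed proportion. The large-subunit sum was 1.32 ± 0.0175 times the small-subunit sum in P1, 1.30 ± 0.00741 times in P3 (SD, n = 4 each) and 1.23 ± 0.0434 times in adults (SD, n = 7). All adult ratios of these sums lay below the lowest neonatal ratio of 1.29. Within the adults the ratio was 1.20, 1.19, 1.17 and 1.22 in replicates 1 to 4 and 1.27, 1.27 and 1.27 in replicates 5 to 7, so the distance from the neonatal ratio differs between the adult sets. The part of the depth or the preparation of these sets in that distance was not tested. Abundant members weigh most on such sums. Taken from the median core member of each subunit instead, the ratio of large to small overlapped between adults and neonates. Those medians, large and small, were 78.2 and 96.3 RPKM in adult replicate 3 and 370 and 548 RPKM in P3 replicate 2. They were 56.3 and 80.5 RPKM in adult replicate 7 and 407 and 489 RPKM in P1 replicate 3.

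**Figure D1:**
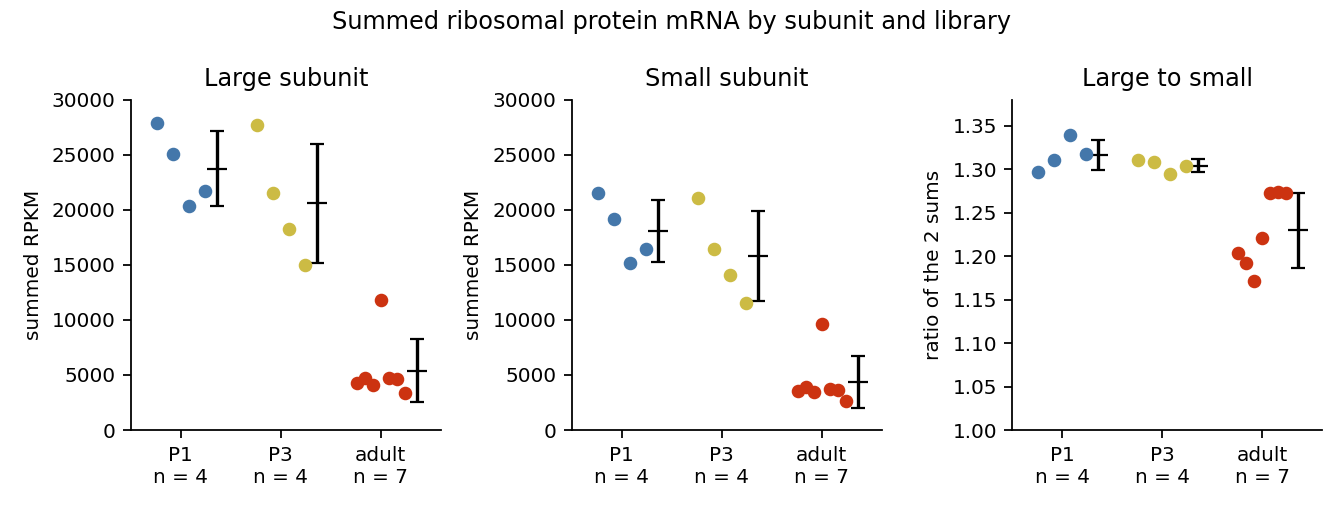
Summed RPKM of the 53 large-subunit and 36 small-subunit members and the ratio of these sums, by stage; each point is a library, and the bars are the mean and SD of 4, 4 and 7 libraries. Adult libraries lie below the neonatal ones in both sums, adult replicate 4 at 11802 and 9666 RPKM is the highest of them, and the ratio, whose axis starts at 1, is 1.17 to 1.27 in adults against 1.29 to 1.34 in neonates.

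In limma on log2(RPKM + 0.5), all 89 members were called lower in adults than in P1, where a call is an adjusted p under 0.05 with an absolute log2 change of at least 1. Of all tested genes, 62.7% were called lower and 4.32% higher. The median change was -2.29 over the members, 4.88-fold lower in adults, with -2.31 for the large and -2.20 for the small subunit. The largest change was -2.93, for Rpl34, and the largest adjusted p of a member was 7.7e-04 in limma. The median of all tested genes was -1.36, so the members lay at -0.92 relative to it, and 89 of 89 were below the median gene. By library, the median member was 45.9 to 66.2 times the table's median gene in P1 and 18.3 to 68.2 times in adults. The groups overlapped on this measure through adult replicate 4, the highest of all libraries. Adult and P1 libraries were apart for 85 members, where 65.1% of tested genes were apart with adults lower. The 4 members that overlapped were Rpl36, Rps21, Rps27rt and Rps29, each through adult replicate 4. Where groups were apart, a two-sided exact permutation test gave 0.003, the smallest p that 7 against 4 libraries allow.

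Against P3, all 89 members were again called lower in adults, where 62.7% of tested genes were called lower and 9.16% higher. The median change was -2.03, 4.07-fold lower in adults, with -2.07 for the large and -1.95 for the small subunit, and the largest change was -2.82, for Rpl30. The largest adjusted p of a member was 0.0046 in limma. All tested genes had a median of -1.48, the members lay at -0.55 relative to it, and 82 of 89 were below the median gene. The median member was 31.7 to 58.0 times the table's median gene in P3 libraries, which adult replicates 2 to 4 reached or passed. Adult and P3 libraries were apart for 71 members, where 64.3% of tested genes were, and each of the 18 that overlapped did so through adult replicate 4. With P3 replicate 1 alone, the P3 library highest in cardiomyocyte markers, the median was -2.51; its 89 calls assume that this lone library varies like the other groups. Against P3, the endothelial, fibroblast and mural marker sums were lower and the cardiomyocyte sum higher in adults. Of single markers, 7 of 8 cardiomyocyte ones were called higher, and 8 of 8 endothelial, 4 of 4 fibroblast and 2 of 3 mural ones lower. Against P1, 5 of 8 cardiomyocyte markers were called higher and 1 lower. There 7 of 8 endothelial, 4 of 4 fibroblast and 1 of 3 mural markers were called lower, where 62.7% of tested genes were. The part of these cells in the ribosomal protein difference was not tested.

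The size of the difference depends on how libraries are scaled, since the median gene also differs between stages. Median-of-ratios scaling put the median gene at -0.06 in adults against P1 and -0.09 against P3. The member medians were then -0.75 and -0.40, and 16 and 7 members were called lower. Relative to the median gene, the members were at -0.69 to -1.37 against P1 over the 4 scalings tried. Against P3 they were at -0.31 to -1.32. Apart from quantile normalization, each scaling divides a library by a single number, which moves the median member and the median gene nearly alike. That the sign is the same under these scalings is therefore no separate support. On the deposited scale the distances were -0.74 and -0.36 with a pseudocount of 0.1, and -1.09 and -0.71 with a pseudocount of 1. With adult replicates 1 to 4 the members lay at -0.61 and -0.26 relative to the median gene, and with adult replicates 5 to 7 at -1.31 and -0.97.

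No member was called between P3 and P1 in limma, where 5.31% of tested genes were called lower and 1.40% higher in P3. The median member change was -0.21 and the median of all tested genes was 0.09. Of the 89 members, 85 were below 0, and Rpl22l1, Rpl7l1, Rpl10a and Rpl28 were above it. None had an unadjusted p under 0.05, and the lowest adjusted p was 0.19, for Rps27l. The sign of the median rests on P3 replicates 2 to 4: P3 replicate 1 alone gave a median of 0.23 with 2 members below 0, and quantile normalization of all libraries gave 0.01. P3 and P1 were apart for Rpl31-ps12, a pseudogene by name, where 2.53% of tested genes were apart with P3 lower.

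**Figure D2:**
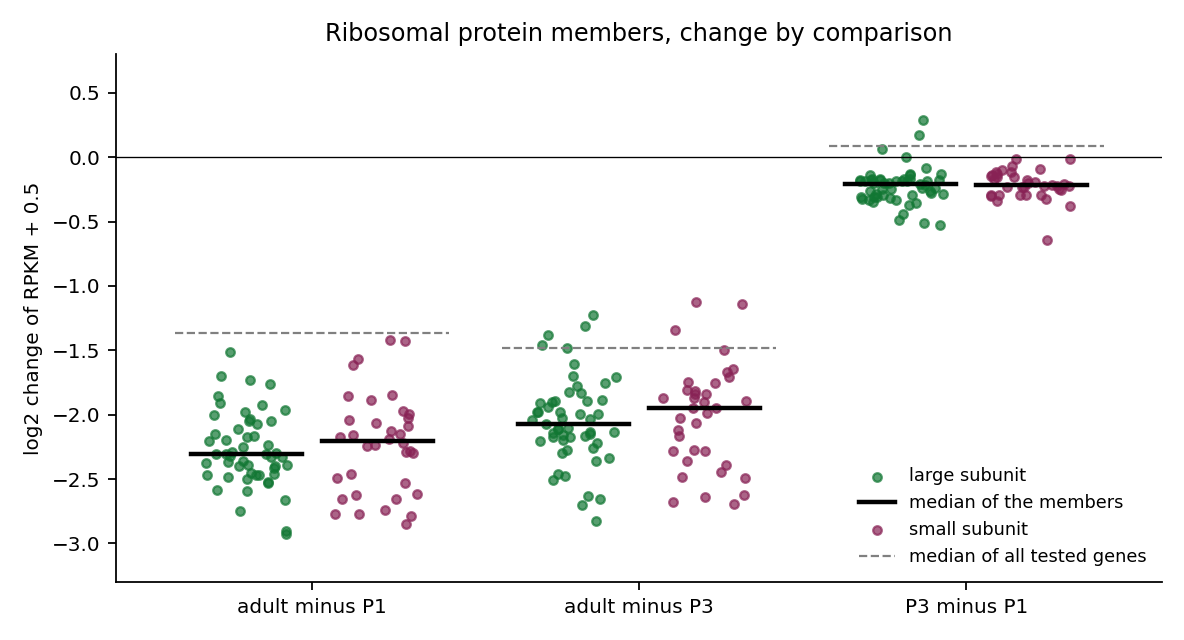
Log2 change of RPKM + 0.5, later stage minus earlier, for each large-subunit member (green) and small-subunit member (purple) in 3 comparisons; black bars are the subunit medians and grey dashes the median of all tested genes. All members lie below 0 in adults against P1 (median -2.29) and against P3 (median -2.03) on the deposited scale, some turning positive with median-of-ratios or quantile scaling, and P3 against P1 centres at -0.21, or at 0.23 with P3 replicate 1 alone and 0.01 with quantile normalization.

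Levels of single members follow, given for replicates 1 to 4 in P1 and in P3 and as the lowest, median and highest of the 7 adult libraries. The stalk of the large subunit draws elongation factors to the ribosome. Rplp0, which anchors the stalk, had 1053, 1010.0, 853 and 824 RPKM in P1, 1035, 837, 664 and 531 RPKM in P3, and 177, 228 and 481 RPKM in adults. Rplp1, an acidic stalk protein with the highest mean of all members, had 1448, 1224, 930.3 and 1072 RPKM in P1, 1205, 982, 853 and 665 RPKM in P3, and 128, 205 and 612 RPKM in adults. Its partner Rplp2 had 1034, 785, 614 and 692 RPKM in P1, 896, 701, 589 and 529 RPKM in P3, and 115, 182 and 554 RPKM in adults. The highest adult value of Rplp2, in replicate 4, passed P3 replicate 4, and the other 2 genes did not overlap. Rpl12, at the base of the stalk, had 712, 622, 527 and 539.7 RPKM in P1, 696, 575, 475 and 395 RPKM in P3, and 55.6, 84.0 and 250.2 RPKM in adults, also without overlap. In adults against P1 the log2 changes were -1.93 for Rplp0, -2.33 for Rplp1, -1.91 for Rplp2 and -2.67 for Rpl12. Against P3 they were -1.60 for Rplp0, which turned positive with median-of-ratios scaling, -1.98 for Rplp1, -1.70 for Rplp2 and -2.48 for Rpl12.

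Rpl5 and Rpl11 bring the 5S ribosomal RNA into the large subunit and, when free, restrain Mdm2, the ubiquitin ligase of p53. Rpl5 had 362, 359.8, 310.1 and 312 RPKM in P1, 394, 312, 269 and 234 RPKM in P3, and 52.5, 64.5 and 129.9 RPKM in adults. Rpl11 had 780.3, 693, 561 and 585 RPKM in P1, 773, 559, 499 and 426 RPKM in P3, and 87.5, 123 and 298 RPKM in adults. Neither overlapped between adults and neonates, and both changed close to the family median, by -2.31 and -2.31 against P1 and by -2.13 and -2.07 against P3.

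Rpl4, Rpl17 and Rpl39 line the tunnel through which the nascent chain leaves, and Rpl19, Rpl23a, Rpl26, Rpl31 and Rpl35 surround its mouth, where Rpl23a is a docking site. Rpl4 had 788, 771, 677 and 608 RPKM in P1, 821, 691, 565 and 472 RPKM in P3, and 121, 130.5 and 249 RPKM in adults. Rpl17 had 384, 348, 288 and 296 RPKM in P1, 403, 284, 264 and 233 RPKM in P3, and 43.2, 61.0 and 128 RPKM in adults. Rpl39 had 614, 535, 429.7 and 506 RPKM in P1, 556, 411, 397 and 295 RPKM in P3, and 50.5, 83.5 and 254 RPKM in adults. Each of these 3 was lower in all adult libraries than in any neonatal one. Rpl19 had 935, 834, 691 and 709 RPKM in P1, 985, 762, 603 and 511 RPKM in P3, and 124, 133 and 379.8 RPKM in adults. Rpl23a had 946, 865, 728 and 751 RPKM in P1, 974, 668, 586 and 465 RPKM in P3, and 126, 185 and 374 RPKM in adults. Rpl31 had 329.6, 288, 232 and 261 RPKM in P1, 314, 252, 232 and 195 RPKM in P3, and 31.0, 52.7 and 125 RPKM in adults. These also did not overlap. Rpl35 had 889, 725, 605 and 632 RPKM in P1, 923, 641, 567 and 451 RPKM in P3, and 121, 163 and 447 RPKM in adults. Rpl26 had 184, 225, 179 and 218 RPKM in P1, 236, 145, 139.6 and 87.5 RPKM in P3, and 23.9, 38.6 and 112 RPKM in adults. Rpl35 stayed apart, while Rpl26 in adult replicate 4 passed P3 replicate 4. All 8 tunnel genes were called lower in adults, with medians of -2.29 against P1 and -2.11 against P3, beside -2.29 and -2.03 for all members.

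Among other large-subunit members, Rpl41, a very short protein at the bridge between subunits, had 1331, 1091, 894 and 999 RPKM in P1, 1252, 1030.0, 882 and 712 RPKM in P3, and 149.6, 207 and 714 RPKM in adults. Rpl10, which joins late and lies near the catalytic centre, had 1033, 896, 633 and 801 RPKM in P1, 1012, 822, 703 and 557 RPKM in P3, and 88.9, 129 and 285 RPKM in adults. Rpl32, the parent of a listed copy, had 1045, 907, 752 and 764 RPKM in P1, 1074, 790.4, 665 and 539.8 RPKM in P3, and 115, 151 and 373 RPKM in adults. Rpl41 was the highest core member in each P3 library and overlapped P3 through adult replicate 4, and Rpl10 and Rpl32 did not overlap. The largest changes of the subunit against P1 were in Rpl34 and Rpl30, and against P3 in Rpl30 and Rpl7l1. Rpl30 (chr15:34440505-34443640, minus strand), which in yeast binds its own transcript, had 94.8, 84.7, 59.4 and 71.6 RPKM in P1, 99.2, 80.1, 74.6 and 45.9 RPKM in P3, and 5.63, 9.79 and 18.2 RPKM in adults. Rpl34 (chr3:130726831-130730398, minus strand) had 80.1, 75.5, 56.2 and 47.8 RPKM in P1, 85.1, 59.4, 46.2 and 30.4 RPKM in P3, and 3.71, 8.38 and 14.0 RPKM in adults. Both were among the lowest core members and stood clear of the neonatal libraries. Rpl30 changed by -2.90 (SE 0.27, adjusted p = 1.7e-08) against P1 and by -2.82 (SE 0.27, adjusted p = 1.5e-08) against P3 in limma. Rpl34 changed by -2.93 (SE 0.34, adjusted p = 2.9e-07) against P1 and by -2.64 (SE 0.34, adjusted p = 9.0e-07) against P3. Rpl34 shares sequence with Rpl34-ps1, listed at 6.05 to 21.0 times its level, so how reads were divided between these rows is uncertain.

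Rpl22, Rpl24 and Rpl36 had the smallest changes of the core members of the large subunit. Rpl22 (chr4:152325742-152334071, plus strand), which mice can live without, had 77.4, 68.8, 56.5 and 62.6 RPKM in P1, 80.8, 54.9, 52.7 and 46.1 RPKM in P3, and 16.2, 21.4 and 44.3 RPKM in adults. Rpl24, which reaches over to the small subunit, had 597, 601, 491 and 497 RPKM in P1, 667, 470.5, 379.7 and 305 RPKM in P3, and 116, 164 and 358 RPKM in adults. Rpl36 had 492, 533, 412 and 472 RPKM in P1, 543, 369.9, 253 and 230.3 RPKM in P3, and 81.9, 123 and 436 RPKM in adults. Rpl22 did not overlap, Rpl24 overlapped P3 replicate 4, and Rpl36 in adult replicate 4 passed P1 replicate 3 and P3 replicates 2 to 4. Against P1 the changes were -1.51 (SE 0.23, adjusted p = 8.7e-06) for Rpl22, which reached 0.01 with median-of-ratios scaling, -1.70 (SE 0.30, adjusted p = 3.2e-05) for Rpl24 and -1.76 (SE 0.36, adjusted p = 2.0e-04) for Rpl36 in limma. Against P3 they were -1.31 (SE 0.23, adjusted p = 4.0e-05), -1.38 (SE 0.30, adjusted p = 2.6e-04) and -1.23 (SE 0.36, adjusted p = 0.0042) in the same order, and these 3 were 0.29, 0.25 and 0.40 with median-of-ratios scaling.

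Rpl10a, part of the mobile L1 stalk beside the tRNA exit, had 443, 266, 283 and 292 RPKM in P1, 362, 366, 317 and 278 RPKM in P3, and 56.3, 76.3 and 166 RPKM in adults. Rpl28 had 618, 474, 407 and 429.9 RPKM in P1, 570.2, 510.3, 460.1 and 387 RPKM in P3, and 85.0, 102 and 321 RPKM in adults. These were the core members with a P3 to P1 change above 0, 0.06 and 0.00, and both turned negative with median-of-ratios scaling. Rpl15 had 274, 305, 246 and 259.7 RPKM in P1, 295, 247, 202 and 164 RPKM in P3, and 31.4, 46.8 and 91.2 RPKM in adults. Rpl18 had 662, 666, 553 and 530.4 RPKM in P1, 713, 576, 440.4 and 344 RPKM in P3, and 72.1, 99.1 and 259.5 RPKM in adults. Rpl27 had 397, 403, 329 and 346 RPKM in P1, 438, 308, 246 and 217 RPKM in P3, and 61.3, 68.6 and 159 RPKM in adults. These 3 and Rpl35a, with 311, 293, 212 and 251 RPKM in P1, 338, 249.7, 211 and 164 RPKM in P3, and 33.5, 60.7 and 160.1 RPKM in adults, have human orthologs mutated in Diamond-Blackfan anaemia, and none overlapped between adults and neonates.

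In the small subunit, the mRNA enters past Rps2 and Rps3, is read near Rps23 and Rps15, and leaves past Rps14, Rps26 and Rps28. Rps2 had 869, 823, 622 and 634 RPKM in P1, 856, 783, 586 and 519 RPKM in P3, and 152, 227 and 551 RPKM in adults. Rps3 had 396, 354, 290.0 and 298 RPKM in P1, 395, 328, 292 and 231 RPKM in P3, and 46.2, 63.0 and 144 RPKM in adults. Rps3 did not overlap, while Rps2 in adult replicate 4 passed P3 replicate 4. Rps23 had 984, 781, 651 and 683 RPKM in P1, 949, 727, 646 and 535 RPKM in P3, and 85.5, 111 and 315 RPKM in adults. Rps15 had 700.4, 663, 535 and 573 RPKM in P1, 676, 519.8, 447 and 368 RPKM in P3, and 96.8, 132 and 438 RPKM in adults. Rps15 overlapped P3 replicate 4 and Rps23 did not. Rps14 had 711, 761, 583 and 634 RPKM in P1, 825, 608, 524 and 409 RPKM in P3, and 84.4, 164 and 434 RPKM in adults. It overlapped, again through adult replicate 4 and P3 replicate 4. Rps26 had 765, 646, 541 and 582 RPKM in P1, 722, 548, 452 and 384 RPKM in P3, and 58.4, 86.2 and 239 RPKM in adults. Rps28 had 591, 389.9, 337 and 366 RPKM in P1, 464, 378, 328 and 259.5 RPKM in P3, and 54.4, 72.0 and 205 RPKM in adults. Both were lower in every adult library than in any neonatal one. Among these 7 genes the changes against P1 ran from -2.79 for Rps26 to -1.62 for Rps2, and against P3 from -2.49 for Rps23 and -2.49 for Rps26 to -1.50 for Rps2, which was 0.13 with median-of-ratios scaling.

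Rps6, the substrate of S6 kinase, had 597, 473, 394 and 418 RPKM in P1, 585, 457, 438 and 380.3 RPKM in P3, and 73.3, 78.0 and 210.3 RPKM in adults. Rps27a, made as a fusion to ubiquitin, had 556, 485, 375 and 439 RPKM in P1, 634, 352, 414 and 213 RPKM in P3, and 47.3, 54.4 and 150.0 RPKM in adults. Rps3a1, the highest of the subunit on average, had 958, 924, 768 and 768 RPKM in P1, 1012, 795, 644 and 526 RPKM in P3, and 128, 185 and 408 RPKM in adults. None of these overlapped between adults and neonates, and Rps6 changed by -2.29 against P1 and -2.27 against P3. Between P3 and P1 the change was -0.02 for Rps6 and -0.01 for Rps12, the negative ones nearest to 0, and both turned positive with quantile normalization. Rps12 had 955, 605, 419.6 and 511 RPKM in P1, 776, 601, 579.8 and 439.5 RPKM in P3, and 64.6, 76.5 and 265 RPKM in adults. Rps13 had 632, 586, 483 and 491 RPKM in P1, 607, 462, 361 and 303 RPKM in P3, and 92.6, 119 and 317 RPKM in adults. Rps12 stood apart in adults, and Rps13 overlapped P3 replicate 4.

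Rps19, the gene most often mutated in human Diamond-Blackfan anaemia, had the largest changes of the small subunit, and Rps29 was among the members that changed least. Rps19 (chr7:24884371-24889806, plus strand) had 534, 474, 374 and 394 RPKM in P1, 517, 417, 389 and 290.4 RPKM in P3, and 29.8, 56.2 and 177 RPKM in adults. Rps29 (chr12:69157722-69159186, minus strand), a zinc-binding protein of the subunit head, had 840.3, 750.1, 593 and 710.1 RPKM in P1, 846, 609.8, 526 and 435 RPKM in P3, and 155, 248 and 733 RPKM in adults. Rps19 did not overlap, and Rps29 in adult replicate 4 passed P1 replicates 3 and 4 and P3 replicates 2 to 4. Rps19 changed by -2.85 (SE 0.34, adjusted p = 4.1e-07) against P1 and by -2.70 (SE 0.34, adjusted p = 6.8e-07) against P3 in limma. Rps29 changed by -1.43 (SE 0.34, adjusted p = 7.7e-04) against P1 and by -1.14 (SE 0.34, adjusted p = 0.0046) against P3, and it was 0.12 and 0.49 with median-of-ratios scaling. Rps29 was the highest core member in adult replicates 1, 3 and 4 and Rplp0 in adult replicates 5 and 6, while Rplp1 was highest in each P1 library.

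Rps7 had 469, 477, 403 and 385 RPKM in P1, 483, 381, 311 and 266 RPKM in P3, and 65.8, 91.2 and 189 RPKM in adults. Rps10, which is marked with ubiquitin when ribosomes collide, had 524, 479, 373 and 399 RPKM in P1, 538, 432, 338 and 279 RPKM in P3, and 65.1, 85.5 and 233 RPKM in adults. Rps24 had 945, 729.6, 641 and 665 RPKM in P1, 875, 644, 586 and 491 RPKM in P3, and 162, 186 and 457 RPKM in adults. None of these overlapped. They belong to a list of 17 orthologs of human Diamond-Blackfan genes, whose medians were -2.24 against P1 and -2.03 against P3, close to those of all members.

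Among the paralogs, Rpl22l1 is known to be held down by Rpl22 in mice. Rpl22l1 had 128, 94.1, 64.0 and 89.3 RPKM in P1, 121, 115, 110.3 and 100.3 RPKM in P3, and 8.52, 15.7 and 41.0 RPKM in adults. Its ratio to Rpl22 was 1.13 to 1.66 in P1, 1.498 to 2.18 in P3 and 0.511 to 1.24 in adults. All adult ratios lay below the lowest P3 ratio, and adults overlapped P1 through replicate 3. Within the adults the ratio was 0.751, 1.05, 1.24 and 0.925 in replicates 1 to 4 and 0.600, 0.511 and 0.525 in replicates 5 to 7. Rpl7l1 had 42.8, 46.7, 41.2 and 37.8 RPKM in P1, 53.9, 51.3, 44.6 and 40.8 RPKM in P3, and 5.29, 6.47 and 10.8 RPKM in adults. Rpl7 had 878, 836, 695 and 712 RPKM in P1, 875, 730.3, 646 and 531 RPKM in P3, and 135, 163 and 316 RPKM in adults. The ratio of Rpl7l1 to Rpl7 was 0.0487, 0.0558, 0.0592 and 0.0531 in P1, 0.0616, 0.0703, 0.0691 and 0.0769 in P3, and 0.0325, 0.0397 and 0.0498 in adults. P3 ratios lay above all P1 and all adult ratios, and P1 and adults overlapped.

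Rpl36al had 386, 357, 289 and 322 RPKM in P1, 408, 232, 208 and 158 RPKM in P3, and 43.1, 64.7 and 142 RPKM in adults. Rpl36a had 462, 351, 285 and 323 RPKM in P1, 408, 299, 293 and 262 RPKM in P3, and 40.4, 58.0 and 146 RPKM in adults. Their ratio was 0.835 to 1.02 in P1, 0.604 to 1.00 in P3 and 0.852 to 1.47 in adults. It overlapped between all stages; P3 replicates 2 to 4 were below the lowest P1 and the lowest adult library. Rps27l, a p53 target in human cells, had 213, 289, 228 and 227 RPKM in P1, 268, 181, 118 and 93.1 RPKM in P3, and 28.2, 40.3 and 73.0 RPKM in adults. Rps27 had 243, 184, 154 and 169.7 RPKM in P1, 235, 176, 155 and 125 RPKM in P3, and 27.4, 45.4 and 145 RPKM in adults. Their ratio was 0.878, 1.57, 1.48 and 1.34 in P1, 1.14, 1.03, 0.759 and 0.744 in P3, and 0.503, 0.889 and 1.03 in adults. It was lowest in adult replicate 4 and overlapped between stages. Rps4l had 41.8, 48.4, 60.4 and 37.3 RPKM in P1, 59.5, 41.2, 28.0 and 34.6 RPKM in P3, and 3.55, 7.59 and 21.3 RPKM in adults. Rps4x, its X-linked parent, had 848, 806, 644 and 704 RPKM in P1, 820.4, 714, 590.0 and 510.1 RPKM in P3, and 111, 156 and 357 RPKM in adults. The ratio of Rps4l to Rps4x overlapped between stages, at 0.0492 to 0.0939 in P1, 0.0474 to 0.0725 in P3 and 0.0214 to 0.0829 in adults.

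**Figure D3:**
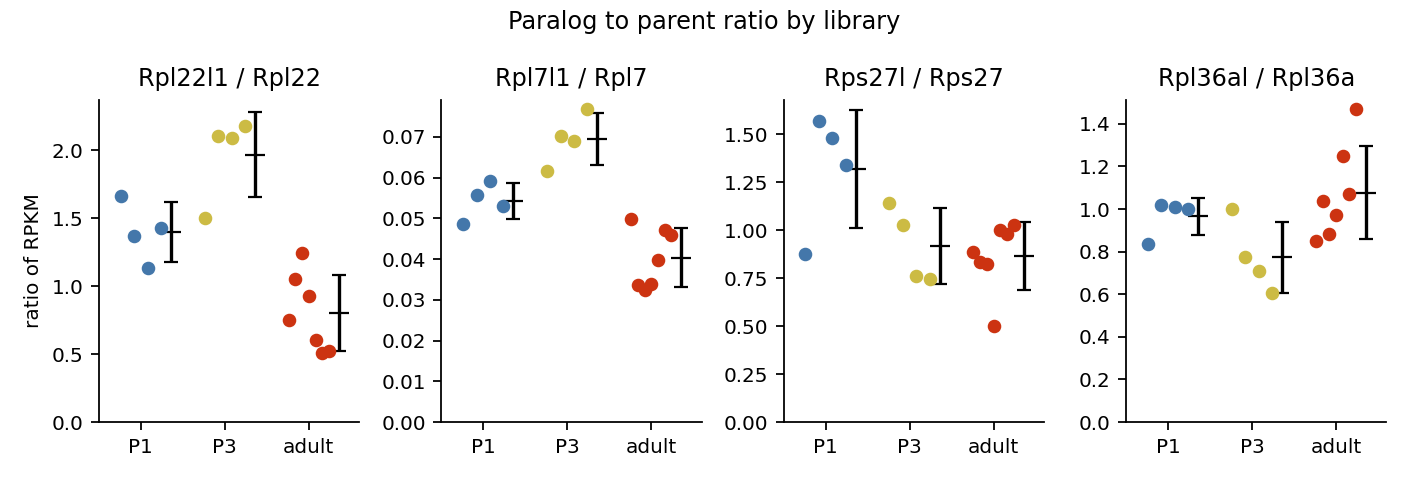
RPKM of a paralog divided by that of its parent gene in each library, for 4 pairs and 3 stages; bars are the mean and SD of 4, 4 and 7 libraries, and each axis starts at 0. The adult ratios of Rpl22l1 to Rpl22 (0.511 to 1.24) and of Rpl7l1 to Rpl7 (0.0325 to 0.0498) lie below all P3 ratios, and the other pairs overlap.

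Of the 89 members, 81 are annotated as protein coding and 8 as processed pseudogenes. Rows named as pseudogenes or retrotransposed copies share long stretches with their parents, so their levels are uncertain. Rps27rt had 457, 349, 262 and 324 RPKM in P1, 444, 332, 290.3 and 238 RPKM in P3, and 52.4, 86.6 and 277 RPKM in adults, and its ratio to Rps27 stayed between 1.88 and 1.91 in every library but P1 replicate 3, where it was 1.70. Rpl34-ps1 had 594, 493, 404 and 458 RPKM in P1, 594, 415, 396 and 306 RPKM in P3, and 62.1, 83.3 and 225 RPKM in adults. Rpl14-ps1 had 279, 199, 179 and 165 RPKM in P1, 251, 172, 167 and 131 RPKM in P3, and 19.9, 39.6 and 77.8 RPKM in adults, and its parent Rpl14 had 401, 372, 294 and 304 RPKM in P1, 391, 330.3, 273 and 229 RPKM in P3, and 50.0, 54.3 and 147 RPKM in adults. Rps27rt overlapped both neonatal days through adult replicate 4, and the others did not overlap. Rpl37rt had 52.4, 43.6, 38.6 and 38.1 RPKM in P1, 51.1, 32.2, 31.2 and 27.3 RPKM in P3, and 5.50, 8.04 and 16.1 RPKM in adults. Its parent Rpl37 had 316, 325, 257 and 280.2 RPKM in P1, 324, 231, 193 and 149 RPKM in P3, and 29.4, 48.5 and 129.9 RPKM in adults. Both were lower in all adult libraries. The lowest rows were Rpl32l with 5.62, 3.85, 2.41 and 3.75 RPKM in P1, 3.23, 2.14, 3.79 and 2.31 RPKM in P3, and 0.394, 0.688 and 1.08 RPKM in adults, and Rpl31-ps12 with 8.45, 6.47, 6.63 and 8.44 RPKM in P1, 6.38, 6.33, 5.49 and 6.05 RPKM in P3, and 0.723, 1.72 and 6.25 RPKM in adults. Rps15a-ps6 had 8.43, 7.25, 7.46 and 5.93 RPKM in P1, 8.57, 5.82, 5.45 and 5.09 RPKM in P3, and 1.27, 1.77 and 5.41 RPKM in adults. Its parent Rps15a had 88.4, 83.0, 73.9 and 72.7 RPKM in P1, 94.9, 66.4, 60.8 and 50.7 RPKM in P3, and 11.3, 15.3 and 34.0 RPKM in adults, and Rps19-ps3 had 9.60, 10.9, 7.32 and 8.76 RPKM in P1, 10.4, 9.92, 6.44 and 7.79 RPKM in P3, and 0.274, 0.719 and 2.99 RPKM in adults. Rpl31-ps12 and Rps15a-ps6 overlapped P3 and turned positive against P3 with quantile normalization. The lowest recovered reads in a library were 2 for Rps19-ps3, 3 for Rpl32l and 6 for Rpl31-ps12, so these rows are imprecise. For Rps15a-ps6 the lowest was 312. Nearly all its recovered reads are multiples of a common number, however, so its true reads may be far fewer.

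A further 21 members (13 large, 8 small) had medians of 75.02 to 809 RPKM in P1, 59.2 to 688 RPKM in P3 and 14.5 to 152 RPKM in adults. Their changes ran from -2.77 to -1.97 against P1 and from -2.62 to -1.75 against P3, inside the span of the members given singly.

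Because most members moved together, each was also tested after subtracting the member median of its library, a scale on which the family as a whole is at 0. In limma, 18 members differed from the family between adults and P1 at an adjusted p under 0.05, 12 higher and 6 lower, where 55.0% of tested genes were higher and 5.20% lower. Against P3, 21 differed, 12 higher and 9 lower, where 44.9% of tested genes were higher and 11.7% lower. Between P3 and P1 none did, where 0.447% were higher and 1.12% lower. Both adult comparisons share the adult libraries; 15 members were called in both, 9 higher and 6 lower. No relative change reached an absolute log2 value of 1. With a pseudocount of 0.1, 10 members were higher and 7 lower against P1, and 10 higher and 11 lower against P3.

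Rps29 relative to the family was at 0.59, 0.65, 0.56 and 0.76 in P1, 0.60, 0.55, 0.50 and 0.58 in P3, and 1.36, 1.60 and 1.68 in adults. Every adult library lay above every neonatal one, by 0.89 (SE 0.15, adjusted p = 2.5e-05) against P1 in limma and by 0.97 against P3. Rpl22 was at -2.84, -2.79, -2.83 and -2.73 in P1, -2.78, -2.91, -2.81 and -2.64 in P3, and -2.42, -1.94 and -1.84 in adults. Rps2 was at 0.64, 0.78, 0.62 and 0.60 in P1, 0.62, 0.91, 0.66 and 0.84 in P3, and 1.16, 1.41 and 1.52 in adults. These too were apart, by 0.80 (SE 0.20, adjusted p = 0.0014) for Rpl22 and 0.70 (SE 0.15, adjusted p = 4.0e-04) for Rps2 against P1. Rpl24, Rpl36, Rps24 and Rps15a-ps6 were likewise higher and apart, by 0.62, 0.56, 0.46 and 0.75 against P1, and Rplp0 was higher by 0.39 with overlap.

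The members that were lower relative to the family in both comparisons were Rpl30, Rps19, Rps26, Rps16, Rpl13a and Rpl12. Rps19 was at -0.06, -0.01, -0.11 and -0.09 in P1, -0.11, 0.01, 0.06 and 0.00 in P3, and -0.98, -0.47 and -0.33 in adults. Rps26 was at 0.46, 0.43, 0.42 and 0.48 in P1, 0.38, 0.40, 0.28 and 0.40 in P3, and -0.21, -0.01 and 0.08 in adults. Rpl30 was at -2.55, -2.49, -2.75 and -2.54 in P1, -2.48, -2.37, -2.31 and -2.65 in P3, and -3.69, -3.20 and -2.54 in adults. Rps19 and Rps26 were apart from the neonatal libraries and Rpl30 overlapped them. Against P1 the relative changes were -0.59 (SE 0.25, adjusted p = 0.044) for Rpl30, -0.54 (SE 0.18, adjusted p = 0.012) for Rps19 and -0.47 (SE 0.15, adjusted p = 0.010) for Rps26 in limma. Rps16, Rpl13a and Rpl12, all apart, changed by -0.46, -0.43 and -0.35. Over the 15 fits that each left out 1 library, Rpl30 passed against P1 in 5, Rplp0 in 4 and Rpl12 in 3, and against P3 Rpl12 passed in 5. With adult replicates 1 to 4 alone, Rpl12 (adjusted p = 0.135), Rplp0 (adjusted p = 0.241), Rps16 (adjusted p = 0.0546), Rps24 (adjusted p = 0.0588) and Rps15a-ps6 (adjusted p = 0.0579) did not pass against P1 in limma. Rplp2, Rps27 and Rps27rt were higher against P1 alone and Rps13, Rps15 and Rpl31-ps12 against P3 alone, and Rps12, Rps23 and Rpl7l1 were lower against P3 alone; whether these differ between the comparisons was not tested. With each library left out in turn, 11 of the 18 and 13 of the 21 passed in every fit. With P3 replicate 1 alone, assumed to vary like the other groups, 3 passed against P3, among them Rps29 at 0.92 and Rps2 at 0.74.

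**Figure D4:**
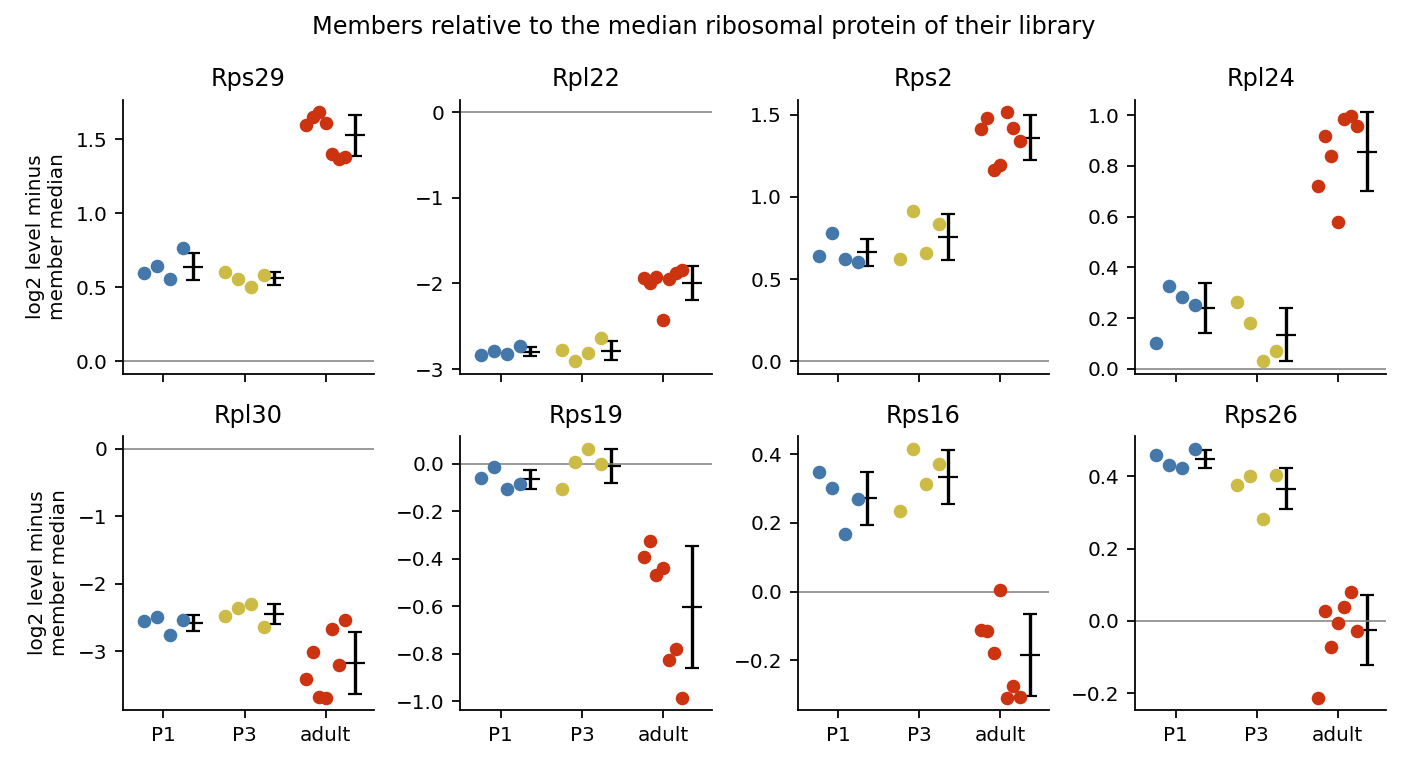
Log2 level of 8 members minus the median log2 level of all members in the same library, by stage; each point is a library and the bars are the mean and SD of 4, 4 and 7 libraries. The upper row (Rps29, Rpl22, Rps2, Rpl24) lies higher in adults and the lower row (Rpl30, Rps19, Rps16, Rps26) lower, Rpl30 with overlap; each axis has its own range.

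The adult sets were also set side by side on this relative scale. For 38 of the 89 members, replicates 5 to 7 did not overlap replicates 1 to 4, 24 being higher and 14 lower in replicates 5 to 7, where 53.1% of tested genes were higher and 0.234% lower without overlap. Rpl14-ps1 was 0.97, Rps4l 0.87, Rplp2 0.46 and Rps9 0.43 higher, while the difference was -0.63 for Rpl22l1, -0.46 for Rps19 and -0.44 for Rps21. For Rps19 the relative change against P1 was -0.34 (adjusted p = 0.083 in limma) with adult replicates 1 to 4 and -0.80 (adjusted p = 1.4e-04) with replicates 5 to 7. For Rpl30 it was -0.86 (adjusted p = 0.0036) with replicates 1 to 4 and -0.22 (adjusted p = 0.32) with replicates 5 to 7. Rps29 passed with either set, at 1.00 with replicates 1 to 4 and 0.74 with replicates 5 to 7.

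Of 3 listed ribosomal protein genes in the table whose symbols fall outside the naming rule, 2 were called lower in each adult comparison. Of all tested genes, 62.7% were called lower in either. Fau and Rack1 are given singly here. Fau, whose product carries Rps30, had 327, 248, 190.4 and 211 RPKM in P1, 287, 254, 237 and 186 RPKM in P3, and 29.1, 42.6 and 163 RPKM in adults. Rack1, a scaffold on the small subunit, had 696, 702, 548 and 555 RPKM in P1, 740.1, 665, 512 and 419 RPKM in P3, and 77.3, 99.7 and 212 RPKM in adults. Both stood apart in adults. In limma Fau changed by -2.33 (SE 0.35, adjusted p = 6.3e-06) and Rack1 by -2.53 (SE 0.27, adjusted p = 9.2e-08) against P1, both called lower.

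Genes that build ribosomes were also lower in adults on the deposited scale. Of 40 assembly factors, 40 were called lower against P1 and 39 against P3, where 62.7% of tested genes were in either comparison, with medians of -2.60 and -2.71, beside -1.36 and -1.48 for all tested genes. Nop58, a core protein of box C/D snoRNPs, had the largest change, -3.85 against P1 and -4.03 against P3, and the smallest called ones were Nop10 at -1.13 against P1 and Emg1 at -1.25 against P3. Of 14 genes of RNA polymerase I and its factors, 12 were called lower against P1 and 11 against P3, with medians of -1.86 and -1.91. The largest changes in this list were -3.95 against P1 and -4.23 against P3, both for Taf1d, and the smallest called ones were -1.38 for Znrd1 against P1 and -1.44 for Znrd1 against P3. Of 13 genes of mTOR, S6 kinase, LARP1 and MYC control, 11 and 12 were called lower, with medians of -1.38 and -1.49, near those of all genes. Myc, a driver of ribosome synthesis, had 71.4, 36.3, 43.6 and 19.5 RPKM in P1, 55.9, 64.5, 75.9 and 28.4 RPKM in P3, and 0.150, 0.255 and 3.09 RPKM in adults. All adult libraries of Myc were below the neonatal ones, and it changed by -5.29 against P1 and -5.74 against P3.

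Of 15 other mRNAs known for a 5′ tract of this kind, 15 were called lower against P1 and 13 against P3, with medians of -1.84 and -1.83. Of all tested genes, 62.7% were called lower in either comparison, with medians of -1.36 and -1.48. Eef1a1, the elongation factor that delivers tRNAs, had 3699, 3976, 3456 and 3199 RPKM in P1, 4160.0, 3531, 3164 and 2778 RPKM in P3, and 26.2, 61.3 and 271 RPKM in adults, and it changed by -5.78 (SE 0.47, adjusted p = 3.4e-09) against P1 in limma. The smallest called changes were -1.01 for Tpt1 against P1 and -1.12 for Naca against P3, and Tpt1 and Eif3h were not called against P3, at -0.78 and -0.86. None of these 15, of the 40 assembly factors or of the 13 control genes was called between P3 and P1 in limma, and 1 RNA polymerase I gene, Polr1e, was called lower in P3 (-1.02 (SE 0.29, adjusted p = 0.036)).

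Mitochondrial ribosomal proteins, which build the separate ribosome of the mitochondrion, were read for comparison. Of 78, 15 were called lower in adults against P1, where 62.7% of tested genes were, with a median of -0.53 beside -1.36 for all tested genes. Against P3, 3 were called lower and 6 higher, where 62.7% and 9.16% of tested genes were, with a median of 0.03 beside -1.48. Between P3 and P1, 6 were called lower, where 5.31% of tested genes were, with a median of -0.59 beside 0.09. Whether the mitochondrial and cytosolic proteins differ was not tested. Mrps6 changed by -2.63 against P1 and -2.03 against P3. Mrpl42 had 97.8, 183, 139 and 158 RPKM in P1, 141, 46.2, 34.7 and 34.6 RPKM in P3, and 179, 226 and 337 RPKM in adults, and it changed by 0.70 against P1, which was not called, and by 2.11 against P3, where P3 replicates 2 to 4 held its lowest values.

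A feature of gene structure was also more frequent among the members than among all tested genes. A snoRNA gene lies within 29 of the 89 members on the same strand (32.6%), against 197 of 9213 tested genes (2.14%) with a GENCODE gene of that name. Rpl4 holds 5 and Rpl13a holds 4. The members are spread over 19 chromosomes.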

How the data were processed

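Total RNA was extracted with TRIzol and made into Illumina TruSeq libraries, per the labels' protocols. The authors deposited 1 table of RPKM values with 1 column per library, made, per the submitters' processing notes, with HISAT2 and Partek 6.6 on mm10. The sources used here give neither annotation nor counting options nor strand, which leaves the reads of paralogs, pseudogenes and genes overlapping on the other strand uncertain. The table lists no value at or under 0.1.

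Members and lists were chosen with earlier results of these data known. Rows that reached an RPKM of 1 in 4 or more of the 15 libraries were fitted on log2(RPKM + 0.5), a scale that understates changes of low genes, with limma 3.58.1 in R 4.3.3 (eBayes with trend, 1 coefficient for each of the 3 groups). Changes are later stage minus earlier. Genes were called where p, adjusted after Benjamini and Hochberg over all 9389 tested genes, was under 0.05 and the change was 1 or more in size. For relative changes each library was centred on its member median, at an adjusted p under 0.05 of any size. Tests are two-sided, and the code was tested on simulated data. Sums, ratios and lists are values without a test.

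Values by sample are given for 65 members: per subunit the 3 highest and 2 lowest mean levels and the 2 largest and 2 smallest changes of each comparison, members against the common direction, copies with their parents, and the lists by role. Each named list gives its largest and smallest called change, and further examples were chosen after their values were seen. Some genes are counted in totals but not reported singly here. RPKM steps gave whole reads in all libraries for 357 of 400 low genes tried (89.2%, relative tolerance 3e-05) and for 53 of the 89 members. Depth was estimated from 28 genes with 1 transcript in GENCODE, whose mm10 positions are printed. Start windows come from RefSeq, build GRCm38.p6. Alternatives were other scalings, pseudocounts of 0.1 and 1, no filter, no trend, each library left out, the adult sets apart and replicate number as a block. Scaling to the member median, the block's libraries without the block, and P3 replicate 1 alone were added after the data were seen.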

Additional observations from a re-analysis of the deposited data

Results flagged for a closer look

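Adult replicate 4 lay far above the other 6 adult libraries, by a gap between it and its nearest neighbour that exceeded Dixon's limit for 7 samples. This held for 66 of the 89 members and for no library of P1 or P3; by chance about 1 in 20 groups is picked out, and the members of 1 library are not independent of each other. The summed levels in adult replicate 4 were 11802 RPKM for the large subunit, 9666 RPKM for the small subunit and 21468 RPKM for both, where the other adult libraries had 6037 to 8625 RPKM for both. Among members with values of their own in the text, 44 were apart in this way. In the large subunit adult replicate 4 stood apart for Rpl10 (285 RPKM), Rpl10a (166 RPKM), Rpl11 (298 RPKM), Rpl12 (250.2 RPKM), Rpl14 (147 RPKM), Rpl15 (91.2 RPKM), Rpl17 (128 RPKM), Rpl18 (259.5 RPKM), Rpl19 (379.8 RPKM), Rpl22 (44.3 RPKM), Rpl23a (374 RPKM), Rpl24 (358 RPKM) and Rpl27 (159 RPKM). It did so also for Rpl28 (321 RPKM), Rpl31-ps12 (6.25 RPKM), Rpl32 (373 RPKM), Rpl34-ps1 (225 RPKM), Rpl35 (447 RPKM), Rpl35a (160.1 RPKM), Rpl36 (436 RPKM), Rpl36a (146 RPKM), Rpl4 (249 RPKM), Rpl41 (714 RPKM), Rpl5 (129.9 RPKM), Rpl7 (316 RPKM), Rplp0 (481 RPKM) and Rplp1 (612 RPKM). In the small subunit it stood apart for Rps10 (233 RPKM), Rps12 (265 RPKM), Rps13 (317 RPKM), Rps15 (438 RPKM), Rps15a (34 RPKM), Rps2 (551 RPKM), Rps23 (315 RPKM), Rps24 (457 RPKM) and Rps26 (239 RPKM). The rest of the small subunit apart in this library were Rps27 (145 RPKM), Rps27rt (277 RPKM), Rps28 (205 RPKM), Rps29 (733 RPKM), Rps3 (144 RPKM), Rps4x (357 RPKM), Rps6 (210.3 RPKM) and Rps7 (189 RPKM). The estimated depth of adult replicate 4 was the lowest of all libraries, 6.3 in units of 1000000 reads, and its median gene was at 3.52 RPKM beside 2.02 to 3.35 RPKM in the other adults. Its endothelial (198.5 RPKM), fibroblast (68.5 RPKM), mural (98.3 RPKM) and cardiomyocyte (23800.0 RPKM) marker sums were also the highest of the adults; the part of any of these in the levels was not tested. Without it the member median in adults was -2.46 against P1 and -2.24 against P3.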

How the results depend on the processing

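All 89 members were called lower in adults against P1 and against P3 with other pseudocounts, no filter or no trend, and the member medians moved by less than the spread between libraries (0.502). Scaling moved both. With quantile normalization the medians were -1.45 against P1 and -1.49 against P3, and 3352 genes were called against P1, beside 6293 on the deposited scale. With median-of-ratios scaling the medians were -0.75 and -0.40, 16 and 7 members and 3418 and 4476 genes were called. An equal RPKM sum gave -1.59 and -1.46, and an equal sum outside the 100 highest genes gave -1.28 and -1.04, with 4089 genes called against P1 and 49 members against P3. Centring on the member median, which puts the family as a whole at 0, left 0 members called in either, and 147 genes between P3 and P1. Under median-of-ratios scaling the change against P1 became 0.01 for Rpl22 and 0.12 for Rps29, and that against P3 became 0.29 for Rpl22, 0.25 for Rpl24, 0.40 for Rpl36, 0.03 for Rplp0, 0.07 for Rps15a-ps6, 0.13 for Rps2 and 0.49 for Rps29; quantile normalization gave 0.02 for Rpl31-ps12 and 0.15 for Rps15a-ps6. The cause was not tested. Over 2408 single values in each adult comparison (86 members, 28 alternatives), 100 lost their call and 2 turned against P1, and 138 and 9 against P3; of 323 and 380 relative ones 72 and 77 were lost. Between P3 and P1, 24 of 280 turned. These were Rpl10a at -0.02 and Rpl28 at -0.08 with median-of-ratios scaling; Rps12 at 0.28, 0.12 and 0.01 and Rps6 at 0.24, 0.12 and 0.01 with quantile normalization, equal sums and equal sums outside the highest genes; and, with P3 replicate 1 alone, Rpl36 at 0.19, Rpl36al at 0.28, Rps12 at 0.39, Rps13 at 0.16, Rps27l at 0.17 and Rps6 at 0.33. With each library left out, these changes ran from -0.02 to 0.23 for Rpl10a, from -0.08 to 0.13 for Rpl28, from -0.18 to 0.21 for Rps12 and from -0.13 to 0.10 for Rps6. P3 replicate 1 alone also gave 0 genes called between P3 and P1, beside 630 with all libraries, and 3 relative member calls against P3. Leaving out each library gave 6148 to 6424 genes and 89 to 89 members called against P1, 6658 to 6815 genes and 86 to 89 members against P3 (86 without P3 replicate 1), and 75 to 1189 genes and 0 members between P3 and P1, the lowest without P3 replicate 3 and the highest without P3 replicate 1. Medians then ran from -2.46 to -2.19 against P1, from -2.24 to -1.87 against P3 and from -0.37 to -0.07 between P3 and P1. Large minus small subunit medians, -0.10, -0.13 and 0.01 in the 3 comparisons, ran from -0.13 to -0.09, from -0.17 to -0.09 and from -0.02 to 0.01. Relative calls ran from 11 (without P1 replicate 2) to 26 (without adult replicate 4) against P1, from 13 (without P3 replicate 3) to 28 (without adult replicate 4) against P3, and stayed at 0 between P3 and P1. The labels do not say whether replicate numbers pair the libraries. Deviations of same-numbered libraries correlated at -0.506 to 0.371. This cannot decide the point, since libraries of different numbers were not compared. With the replicate block over replicates 1 to 4, 89 members were called against P1, 83 against P3 and 0 between P3 and P1, where 0 genes were called; the same libraries without the block gave 89, 86 and 0 members and 192 genes. With adult replicates 1 to 4 alone 413 genes were called between P3 and P1. Depth limits the rows with few reads, Rps19-ps3, Rpl32l and Rpl31-ps12, and possibly Rps15a-ps6.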
